A study of Drosophila melanogaster with 6 samples.

Results

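The respiratory chain and ATP synthase genes examined here are the nuclear genes whose symbols begin with ND- (complex I), Sdh (complex II), UQCR- (complex III), COX followed by a digit (complex IV) or ATPsyn (complex V). In all, 81 probe sets of the array carried a single symbol of this kind, and they stood for 73 genes of the 11982 genes with a single-symbol probe set. Each gene was represented by its probe set with the highest mean over the 6 arrays. Of the 73 genes, 51 encode subunits, 21 have a symbol ending in L, L1 or L2, which marks a duplicated copy (called a paralogue here), and 1, Sdhaf3, encodes an assembly factor of complex II. The subunit genes were 27 for complex I, 3 for complex II, 4 for complex III, 7 for complex IV and 10 for complex V, and the paralogues were 5, 3, 2, 7 and 4 in the same order.

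Expression was measured on Affymetrix arrays in heads of male Drosophila melanogaster, all adults 5 days old. There were 2 arrays of biological replicates for each of 3 genotypes: rescue flies, which are homozygous for the dme-miR-14 mutation and express this microRNA in the insulin-producing cells; flies homozygous for the same mutation without that expression; and control flies, labelled wild-type. Rescue and mutant flies therefore share the homozygous mutation in every cell. By these labels they differ in the expression of miR-14 in the insulin-producing cells. The driver that directs miR-14 to the insulin-producing cells, and the number of flies per sample, are not given in the sources used here. A head holds neurons, photoreceptors, glia, fat body and muscle, and in such bulk tissue fewer cells of a type and less RNA per cell cannot be told apart.

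The respiratory chain sits in the inner membrane of the mitochondrion. Complexes I and II take electrons from NADH and succinate, complex III passes them to cytochrome c, and complex IV hands them to oxygen. Complexes I, III and IV pump protons as they do so, and ATP synthase, complex V, lets the protons flow back to make ATP. Nerve cells and photoreceptors depend heavily on this supply. Many of the duplicated copies in Drosophila are known for expression mainly in the testis.

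Differences are given on the log2 scale with the standard error (SE) of the limma fit, as the first-named genotype minus the second. P-values are adjusted over all 18769 tested probe sets, and a gene is said to rise or fall where the adjusted p is under 0.05. RNA quality was read from the control probes for actin, as the signal near the 5' end of the transcript divided by that near its 3' end. This ratio was 0.153 and 0.1445 in rescue heads, 0.0942 and 0.137 in mutant heads, and 0.104 and 0.0581 in control heads, so control replicate 2 was the lowest. Intensities of different probe sets are not on a common scale, so the levels of different genes are not ranked here.

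Expression of the respiratory genes differed little between the genotypes. Between mutant and control heads 1 of the 73 genes rose, the complex IV paralogue COX7AL, and none fell, where 6.88% of all probe sets rose and 3.88% fell. Between rescue and mutant heads none rose and 1 fell, COX7AL again, beside 0.693% and 0.709% of all probe sets. Between rescue and control heads 3 rose, the complex I genes ND-B14 and ND-B14.7 and the complex IV gene COX5A, and none fell, beside 6.83% and 5.25%. The comparisons share arrays, so they are not independent of each other. The changes of the 51 subunit genes were small. The 95% confidence interval of the difference between mutant and control lay within 1.5-fold either way for 49 of them, the exceptions being ATPsynbeta and UQCR-11. For rescue against mutant this held for 50, with ATPsynbeta the exception, and for rescue against control for 48, with ATPsynbeta, ND-39 and ND-B14 the exceptions. All 51 intervals were within 2-fold either way in the first comparison and in the second, and 50 were in the third, where that of ATPsynbeta was not.

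**Figure D1:**
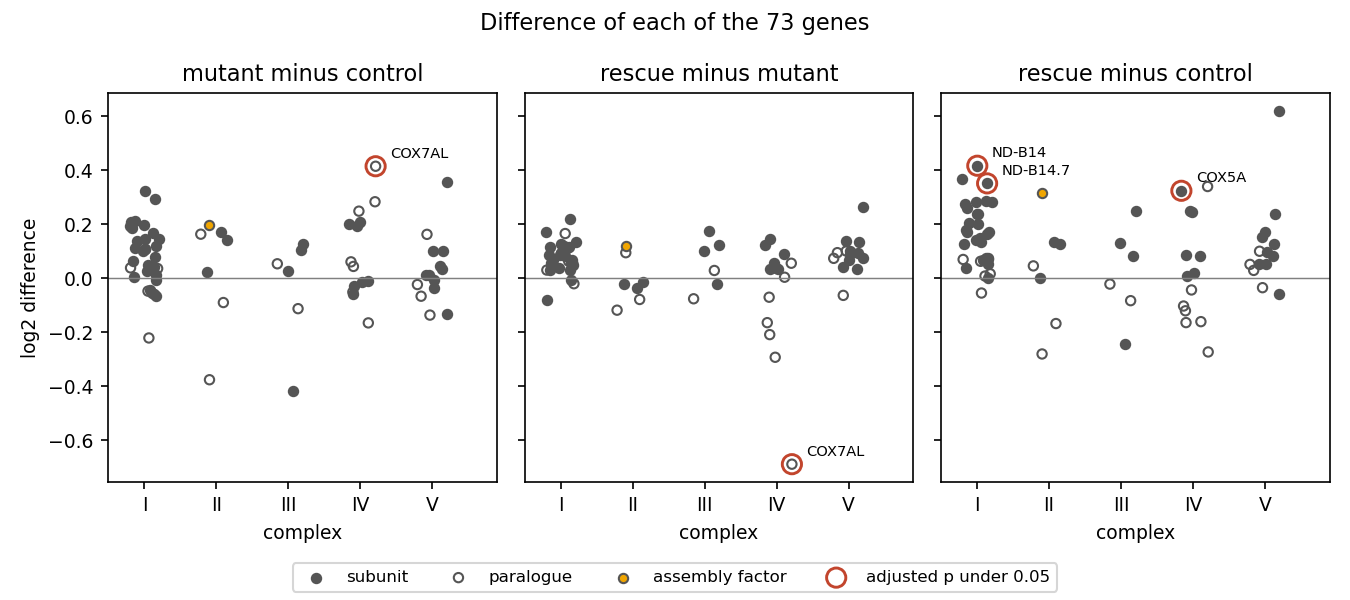
Log2 difference of each of the 73 genes (vertical axis) by complex (horizontal axis) for mutant minus control, rescue minus mutant and rescue minus control. Filled points are subunit genes, open points paralogues, the orange point is Sdhaf3, and red rings mark the genes with an adjusted p under 0.05 (COX7AL in the first 2 panels, ND-B14, ND-B14.7 and COX5A in the last); horizontal jitter has no meaning, and most subunit genes lie slightly above 0.

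Although few single genes passed, most subunit genes lay on the same side of zero. The difference between mutant and control was above 0 for 39 of 51 subunit genes, beside 43% of all probe sets, with a median of 0.10, beside -0.03 over all probe sets. For rescue against mutant it was above 0 for 45 of 51, beside 45.3%, with a median of 0.08, beside -0.02 over all probe sets. For rescue against control it was above 0 for 49 of 51, beside 40.3%, with a median of 0.14, a 1.1-fold difference, beside -0.05. Of the 51, 46 had a mean intensity of at least 1000, a range in which the differences from control of all probe sets also leaned upward. Of all 1268 probe sets that bright, a limit chosen after the values were seen, 62.3% were above 0 between mutant and control (median 0.06), 50.9% between rescue and mutant (median 0.01) and 62.6% between rescue and control (median 0.08). Of the 46 bright subunit genes, 35 were above 0 between mutant and control (median 0.08), 43 between rescue and mutant (median 0.09) and 45 between rescue and control (median 0.15). The part of brightness in the subunit values was not tested.

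In rescue and mutant heads the replicates also differed from each other in these genes as a block. In rescue heads 48 of 51 subunit genes were higher on replicate 1 than on replicate 2, beside 52.3% of all probe sets, with a median gap of 0.08. In mutant heads 41 of 51 were higher on replicate 1, beside 56%, with a median gap of 0.05. In control heads 27 of 51 were, beside 46.1%, with a median gap of 0.01. The median difference between rescue and mutant, 0.084, was thus about as large as the gap between the rescue replicates, 0.081. Per array, the median of the 51 subunit genes relative to the mean of all 6 arrays was 0.12 and 0.03 in rescue heads, 0.03 and -0.02 in mutant heads, and -0.08 and -0.08 in control heads. The control arrays lay below all the others, and rescue replicate 2 was nearly level with mutant replicate 1.

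Complex I, which takes electrons from NADH, had 27 of the 51 subunit genes. Of these 27, 2 rose between rescue and control, beside 6.83% of all probe sets. ND-B14, an accessory subunit of the arm that reaches into the matrix, read 2297.3 and 2193.4 in rescue heads, 2129.7 and 2072.9 in mutant heads, and 1770.1 and 1595.8 in control heads. Every rescue and mutant array was above both control arrays. It rose between rescue and control by 0.42 ± 0.085 SE, or 1.34-fold (adjusted p = 0.0236), and its difference between mutant and control was 0.32 ± 0.085 (adjusted p = 0.0574). ND-B14.7, an accessory subunit of the membrane arm, read 2002.4 and 1921.9 in rescue heads, 1898.2 and 1874.4 in mutant heads, and 1593.7 and 1482.1 in control heads. The order of the groups was the same, and it rose between rescue and control by 0.35 ± 0.079, or 1.28-fold (adjusted p = 0.0329), with a difference of 0.30 ± 0.079 between mutant and control (adjusted p = 0.0598). Neither gene differed between rescue and mutant by more than 0.10, with 95% intervals from -0.11 to 0.30 for ND-B14 and from -0.13 to 0.24 for ND-B14.7. The rises against control did not pass without control replicate 2 (0.34 for ND-B14 and 0.30 for ND-B14.7), nor when a rescue array was left out. Leaving out either mutant array equals a fit of only the rescue and control arrays. In that fit the rises did not pass either (adjusted p = 0.0585 for ND-B14 and 0.0746 for ND-B14.7). Without control replicate 1 both rises against control passed (0.49 and 0.40), as did the differences between mutant and control (0.40, adjusted p = 0.0231, and 0.35, adjusted p = 0.0329). A further fit took as a covariate the mean log2 5' to 3' ratio of actin and GAPDH, called the 5' to 3' index. In it the rescue against control differences were 0.32 (adjusted p = 0.237) and 0.28 (adjusted p = 0.27). The index was -3.231 and -3.173 in rescue heads and -3.649 and -4.539 in control heads. It did not overlap between these groups, so that fit cannot fully separate it from genotype.

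The other complex I subunit genes shared this order to differing extents. Between rescue and control all 27 differences were above 0, with a median of 0.17, and for 23 of 27 both rescue arrays were above both control arrays, beside 23.8% of all probe sets, while for none of them were both below, beside 35.8%. At an unadjusted p under 0.05, 11 of the 27 were higher and none lower, beside 13.6% and 16.7% of all probe sets. ND-39, an accessory subunit of the ubiquinone-reducing module, had the second largest difference of the 27, 0.37 ± 0.098 (adjusted p = 0.0557), with 2820.9 and 2618.8 in rescue heads, 2434.1 and 2387.5 in mutant heads, and 2276.9 and 1949.5 in control heads. Its 3 groups did not overlap, but control replicate 2 stood below control replicate 1, and without that array the difference was 0.26 (adjusted p = 0.157), while without control replicate 1 it was 0.48 and passed (adjusted p = 0.0119). ND-20, the core subunit that carries the last iron-sulphur cluster before ubiquinone, had 2279.7 and 2159 in rescue heads, 2094.7 and 1994.7 in mutant heads, and 1855.5 and 1779.7 in control heads, again with no overlap (0.29 ± 0.079 for rescue against control, adjusted p = 0.0597). ND-51, which binds NADH and the flavin, differed by 0.14 (adjusted p = 0.268). ND-75, the largest core subunit, read 1402 and 1392.2 in rescue heads, 1393.1 and 1272.9 in mutant heads, and 1320.8 and 1472.5 in control heads, so its groups overlapped (0.0026 for rescue against control, adjusted p = 0.989). The core subunit genes ND-49, ND-30, ND-24 and ND-23 were not analysed here.

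Between mutant and control heads, 0 of the 27 complex I subunit genes passed (limma), with 5 higher and none lower at an unadjusted p under 0.05, beside 13.7% and 13.4% of all probe sets. The median was 0.11, and both mutant arrays were above both control arrays for 18 of the 27, beside 23.9%. The reverse held for 1, ND-B16.6, beside 30.9%. Between rescue and mutant heads again 0 passed, with 1 higher and none lower at an unadjusted p under 0.05, beside 5.4% and 8.11%. That gene was ND-B18, an accessory subunit of the membrane arm, at 1295.9 and 1191.5 in rescue heads, 1123.4 and 1011.2 in mutant heads, and 1085.2 and 1134.2 in control heads. Its rescue arrays were above all others, by 0.22 ± 0.090 against mutant (adjusted p = 0.352). For 14 of the 27 genes both rescue arrays were above both mutant arrays, beside 21%, and for 1, ND-B8, both were below, beside 28.1%. ND-B8 read from 7.9 to 9.3 on the 6 arrays, within the range of dim control probe sets (8.4 to 9.6 for one and 13 to 15.7 for another) or below it, so its probe set may not report the gene. It is nevertheless among the 5 genes higher at an unadjusted p under 0.05 between mutant and control. It is also among the 18 with both mutant arrays above both control arrays.

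**Figure D2:**
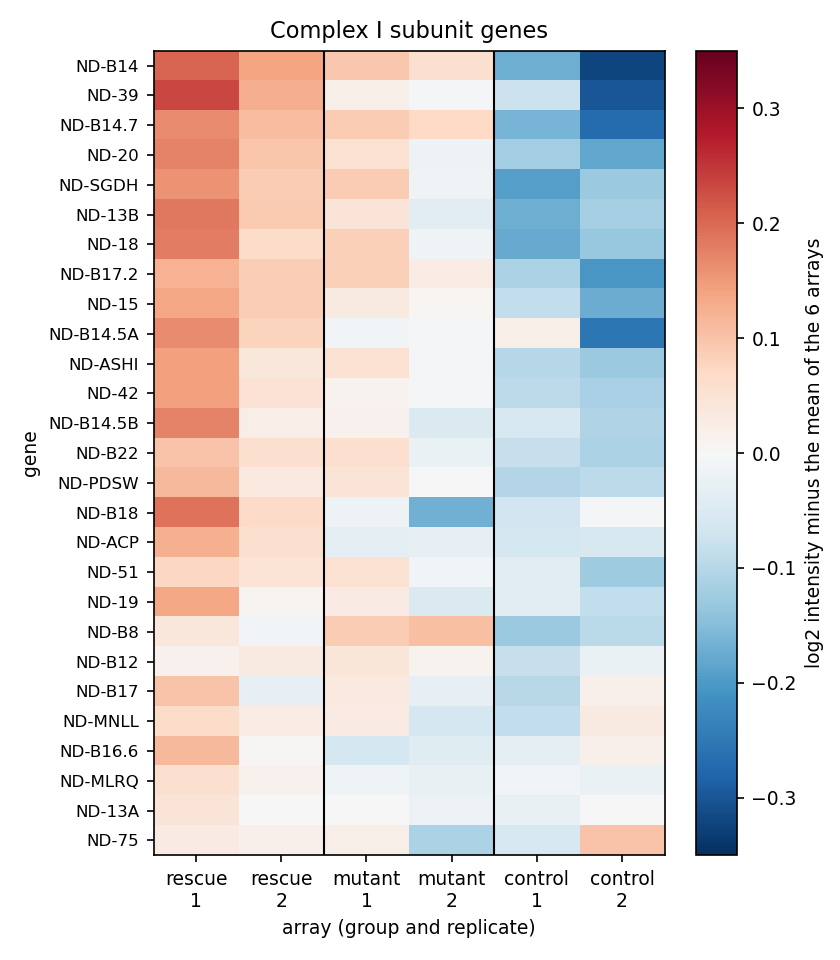
Log2 intensity of the 27 complex I subunit genes (rows) on the 6 arrays (columns, rescue, mutant and control, replicates 1 and 2) minus the mean of the 6 arrays, with genes ordered by their rescue minus control difference. ND-B14, ND-39 and ND-B14.7 head the order and ND-75 ends it; rescue replicate 1 is the highest array for most genes.

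Complex II, succinate dehydrogenase, also belongs to the tricarboxylic acid (TCA) cycle. None of its 3 subunit genes passed in any comparison (limma), also at an unadjusted p under 0.05. SdhB, the iron-sulphur subunit, read 1780.5 and 1718.8 in rescue heads, 1747.5 and 1842.6 in mutant heads, and 1761.6 and 1441.4 in control heads. The groups overlapped, and the difference between mutant and control was 0.17 (adjusted p = 0.353). Without control replicate 1, so with control replicate 2 as the lone control array, it was 0.32 and passed (adjusted p = 0.0484). SdhC, a membrane anchor, differed by 0.14 between mutant and control (adjusted p = 0.316). SdhD, the other anchor, was the steadiest of them, at 1778.8 and 1699.7 in rescue heads, 1761.7 and 1768.1 in mutant heads, and 1762.3 and 1710.2 in control heads. Its difference between mutant and control was 0.02, with a 95% interval from -0.15 to 0.20. Sdhaf3, which helps to mature the iron-sulphur subunit, read 173.2 and 173.7 in rescue heads, 160.9 and 158.4 in mutant heads, and 129.9 and 149.4 in control heads. The 3 groups did not overlap, yet the difference between rescue and control, 0.32, did not pass (adjusted p = 0.0664). Without control replicate 2 it was 0.42 and passed (adjusted p = 0.0323). The gene of the flavoprotein subunit, SdhA, was not analysed here.

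Complex III, the cytochrome bc1 complex, had 4 subunit genes and none passed in any comparison. UQCR-14, a subunit near the ubiquinone site, read 4549.6 and 4256 in rescue heads, 4112.3 and 3966.7 in mutant heads, and 3710.5 and 3689.9 in control heads. Its 3 groups were in the same order as those of ND-B14 and did not overlap (0.25 for rescue against control, adjusted p = 0.0831). UQCR-11, the hinge protein, went the other way, at 61 and 73.8 in rescue heads, 59.5 and 59.4 in mutant heads, and 71.7 and 87.9 in control heads. It had the lowest mutant against control difference of the 73 genes, -0.42 ± 0.13 (adjusted p = 0.0915), and rescue and control arrays overlapped. Without control replicate 1 it was -0.56 (adjusted p = 0.0229), and without control replicate 2 it was -0.27 (adjusted p = 0.251). The core subunit genes UQCR-C1 and UQCR-C2 were not analysed here.

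Complex IV, cytochrome c oxidase, had 7 nuclear subunit genes, of which COX5A rose between rescue and control, beside 6.83% of all probe sets. COX5A read 4100.4 and 3890 in rescue heads, 3662.1 and 3674.1 in mutant heads, and 3293.4 and 3087.9 in control heads. The 3 groups were separate, with mutant heads between the others. The rise was 0.32 ± 0.079, or 1.25-fold (adjusted p = 0.0417), while the difference between mutant and control was 0.20 (adjusted p = 0.156) and that between rescue and mutant 0.12 (adjusted p = 0.575). The rise did not pass without control replicate 2 (0.28) or when a rescue array was left out. Leaving out either mutant array equals a fit of only the rescue and control arrays, in which it did not pass (adjusted p = 0.0877). Nor did it pass with the 5' to 3' index of actin and GAPDH as a covariate (0.25, adjusted p = 0.316). The same held with cyclic loess normalization (0.27, adjusted p = 0.0595) and with array weights (adjusted p = 0.0562). COX5B and COX7A had differences between rescue and control of 0.25 (adjusted p = 0.0805) and 0.25 (adjusted p = 0.105). COX4 read 4661.8 and 4544.3 in rescue heads, 4389.3 and 4593.7 in mutant heads, and 4597.8 and 4549.7 in control heads, with overlapping groups. COX7B, COX7C and COX8 had differences between rescue and control of 0.08, 0.02 and 0.09, with adjusted p from 0.526 to 0.882. A dimmer probe set of COX7B gave 0.29 for the same comparison (adjusted p = 0.0562). Of the 7 oxidase subunit genes, COX5A was thus the one that passed.

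**Figure D3:**
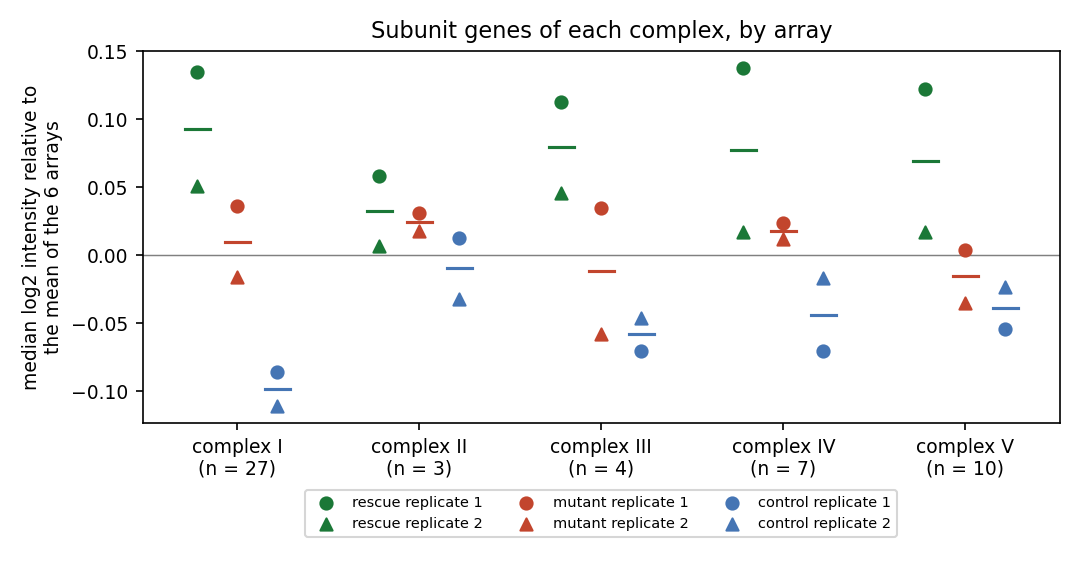
Median log2 intensity of the subunit genes of each complex (horizontal axis, n subunit genes) on each array, relative to each gene's mean over the 6 arrays (vertical axis); circles are replicate 1, triangles replicate 2 and bars the mean of the 2 arrays of rescue, mutant and control. In complex I the control arrays lie lowest, at -0.09 and -0.11, and rescue replicate 1 highest, at 0.14; in complexes III, IV and V rescue replicate 1 also stands above replicate 2.

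ATP synthase had 10 subunit genes and none passed in any comparison (limma). Between rescue and control 2 of them, ATPsynbeta and ATPsynD, were higher at an unadjusted p under 0.05, beside 13.6% of all probe sets. The probe set that stands for ATPsynbeta, the catalytic subunit, had the highest rescue against control difference of the 73 genes, 0.62 ± 0.24 (adjusted p = 0.134). It read 5820.6 and 6006.4 in rescue heads, 4462.4 and 5431.8 in mutant heads, and 5065.9 and 2923.4 in control heads. Control replicate 2, which had the lowest ratio of 5' to 3' actin signal, was the lowest and mutant replicate 1 the next. Without control replicate 2 the difference was 0.22 (adjusted p = 0.349), and without control replicate 1 it was 1.02 (adjusted p = 0.00292). Between mutant and control the value was 0.36, or 0.75 without control replicate 1 (adjusted p = 0.00984) and -0.04 without control replicate 2. With the 5' to 3' index of actin and GAPDH as a covariate the ATPsynbeta differences were -0.12 for rescue against control and -0.07 for mutant against control. The second probe set of ATPsynbeta read 2138.8 and 2045.2 in rescue heads, 1874.8 and 1920.8 in mutant heads, and 2039.4 and 1930.2 in control heads. Its difference between mutant and control was -0.06, so the 2 probe sets of this gene had opposite signs and neither passed.

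**Figure D4:**
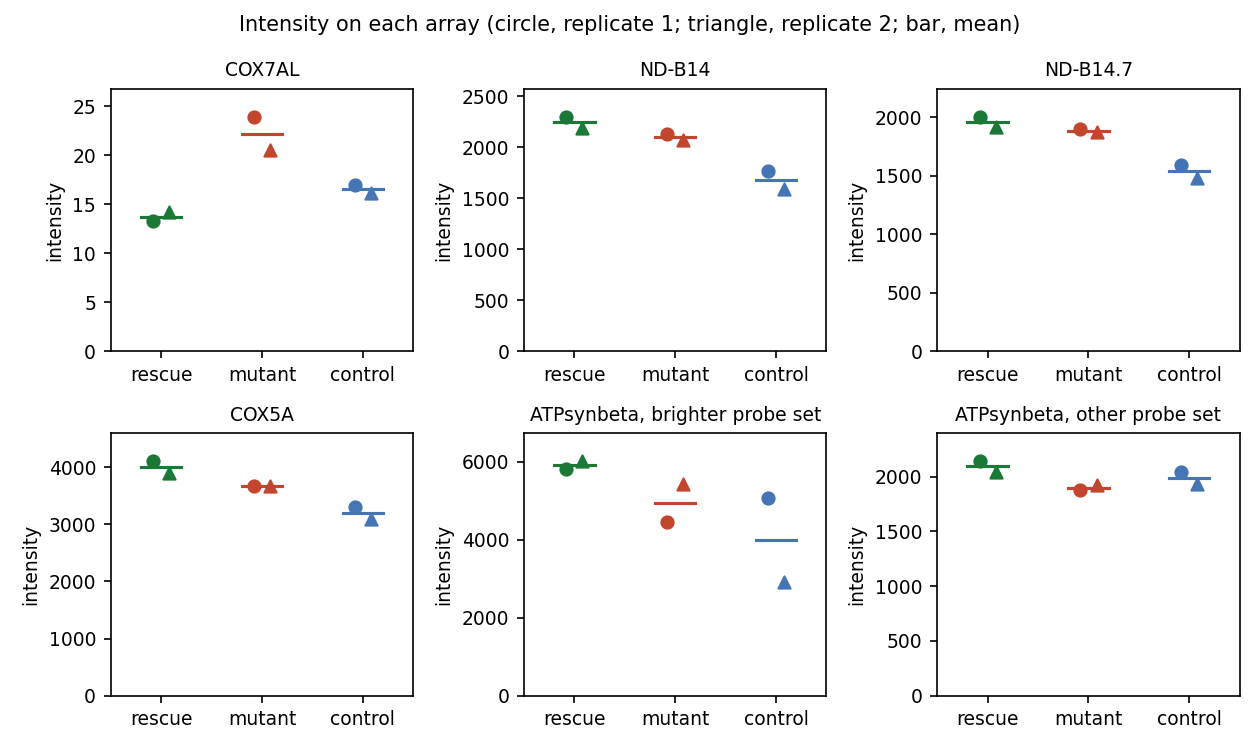
Intensity (vertical axis, from 0) of the 4 genes past an adjusted p of 0.05 in any comparison and of both probe sets of ATPsynbeta on the rescue, mutant and control arrays; circles are replicate 1, triangles replicate 2 and bars the mean of both. COX7AL is highest in mutant heads, ND-B14, ND-B14.7 and COX5A are lowest in control heads, and in the brighter ATPsynbeta probe set control replicate 2, at 2923.4, stands apart.

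ATPsynD, of the peripheral stalk, read 3851.8 and 3841.1 in rescue heads, 3546.3 and 3456.8 in mutant heads, and 3353.9 and 3172.4 in control heads. Its groups were separate, with a difference between rescue and control of 0.24 (adjusted p = 0.0883). ATPsynB, also of the peripheral stalk, and ATPsyndelta, of the central stalk, had differences of 0.17 (adjusted p = 0.181) and 0.15 (adjusted p = 0.24), each with both rescue arrays above both control arrays. ATPsyngamma, the central shaft, had a difference of 0.05 (adjusted p = 0.672) by its brighter probe set. ATPsynC, the membrane ring that protons turn, was the single subunit gene of this complex whose difference between rescue and control was below 0, at -0.06, with 6139.4 and 5934 in rescue heads, 5875.5 and 5591.1 in mutant heads, and 6261.3 and 6300.6 in control heads. Between rescue and mutant heads all 10 ATP synthase subunit genes had a difference above 0, beside 45.3% of all probe sets, with a median of 0.09, and for 8 of them both rescue arrays were above both mutant arrays, beside 21%. 

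Besides ATPsynbeta, 5 genes had 2 or 3 probe sets, and none of these probe sets passed. For ATPsyngamma, COX7B, ND-ACP and ND-B17 a dimmer probe set gave a larger difference between rescue and control than the one that stands for the gene. These values were 0.27 against 0.05 for ATPsyngamma, 0.29 against 0.08 for COX7B, 0.32 against 0.15 for ND-ACP and 0.23 against 0.08 for ND-B17, with adjusted p for the dimmer ones of 0.0764, 0.0562, 0.0513 and 0.11. ND-ACP had another dimmer probe set, which gave 0.14 (adjusted p = 0.247), close to the 0.15 of the chosen one. COX7B also had another, at 12.6 to 16.8 on the 6 arrays, which gave 0.14 (adjusted p = 0.51). The choice of probe set thus moved the size of the difference between rescue and control in these 4 genes, and not its sign. Between mutant and control the sign changed with the probe set for ATPsyngamma (-0.04 by the brighter and 0.08 by the dimmer) and for COX7B (-0.01 and 0.14). ND-ACP, the acyl carrier protein of complex I, read 1692.3 and 1622.6 in rescue heads, 1403.5 and 1408.5 in mutant heads, and 1395.3 and 1268.6 in control heads by the dimmer probe set that gave 0.32, so that its rescue arrays stood above the others. A second probe set of COX7C, at 10.2 to 15.2 on the 6 arrays and thus as dim as the dim control probe sets, had a difference of -0.37 between rescue and control (adjusted p = 0.0872), where its brighter one had 0.02.

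The differences of the 21 paralogues were above 0 for 10 between mutant and control, beside 43% of all probe sets, for 11 between rescue and mutant, beside 45.3%, and for 9 between rescue and control, beside 40.3%. These counts lay near the shares over all probe sets, and the medians were -0.02, 0.005 and -0.03. All paralogues other than COX7AL2 read at most 87.8 on any array, and 3 had mean intensities no higher than the dim control probe sets. COX7AL, a copy of the oxidase subunit gene COX7A, was the only one that passed. It read 13.3 and 14.2 in rescue heads, 23.9 and 20.5 in mutant heads, and 17 and 16.2 in control heads. The 3 groups were separate, with mutant heads highest and rescue heads lowest. It rose between mutant and control by 0.42 ± 0.098, or 1.33-fold (adjusted p = 0.0407), and fell by 0.69 ± 0.098 between rescue and mutant (adjusted p = 0.0263), while the difference between rescue and control was -0.27 (adjusted p = 0.119). Its rescue and control values were close to those of the dim control probe sets, so whether the transcript was above background is unknown. COX7A itself had a difference of 0.21 between mutant and control (adjusted p = 0.166).

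Neither COX7AL call was stable to leaving out arrays, nor to adding 16 to the intensities before the log2, which gave 0.23 between mutant and control (adjusted p = 0.0694) and -0.36 between rescue and mutant (adjusted p = 0.0603). The gene lies under a minimum mean intensity of 32. The rise did not pass without control replicate 2 (0.38) or without either mutant array (0.30 and 0.53), and passed without control replicate 1 (0.45). Leaving out either rescue array left the rise at 0.42. That equals a fit of only the mutant and control arrays, in which it did not pass (adjusted p = 0.0913). The fall did not pass when a mutant or a rescue array was left out (-0.58 to -0.80). Leaving out either control array left it at -0.69. That equals a fit of only the rescue and mutant arrays, in which the fall passed (adjusted p = 0.0161). With the replicate number as a block the rise had an adjusted p of 0.0799 and the fall of 0.0729. Of 9 testis markers 0 passed in either comparison (limma). Over all probe sets 6.88% rose and 3.88% fell between mutant and control, and 0.693% and 0.709% between rescue and mutant. The summed intensity of the 9 testis markers was 406.8 and 450.9 in rescue heads, 355 and 342.6 in mutant heads, and 432.1 and 391 in control heads. The order of these sums came from bol, at 208.4 and 240.9 in rescue heads, 139.6 and 146.9 in mutant heads, and 215.9 and 158.3 in control heads. Each of the other 8 testis markers read 74.2 or less on every array and none was listed at 0, and the part of testis RNA in the COX7AL values was not tested.

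COX7AL2, another copy, differed from the rest in reading 1172.2 and 1000.4 in rescue heads, 1086.7 and 997.9 in mutant heads, and 798.5 and 916 in control heads. Its rescue and mutant arrays were above both control arrays, with differences of 0.34 for rescue against control (adjusted p = 0.0985) and 0.28 for mutant against control (adjusted p = 0.163). The suffix of its probe set (_s_at) marks probes that can match more than 1 transcript, so other transcripts may contribute. SdhCL, a copy of SdhC, had a difference of -0.38 between mutant and control (adjusted p = 0.0826), at 33 and 30.4 in rescue heads, 30.1 and 29.2 in mutant heads, and 34.7 and 42.6 in control heads. It passed without control replicate 1 (-0.52, adjusted p = 0.0117) and had a difference of -0.23 without control replicate 2. COX4L had a difference of -0.29 between rescue and mutant (adjusted p = 0.36), while COX4 had 0.04. COX5BL, which lies 2 places from COX5B in the gene order, had -0.16 (adjusted p = 0.467), where COX5B had 0.06. COX6CL had -0.21 and SdhAL -0.12 in the same comparison, with adjusted p of 0.464 and 0.568. ND-51L2 had -0.22, COX6AL2 -0.16 and ATPsynCF6L -0.14 between mutant and control, with adjusted p from 0.223 to 0.335, where ND-51 had 0.10 and ATPsynCF6 0.01. SdhBL had -0.17 between rescue and control (adjusted p = 0.203), beside 0.13 for SdhB. The other 10 paralogues had differences between -0.12 and 0.16 in all 3 comparisons.

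Subunits of the same complexes whose symbols follow no common pattern were read as a separate list. Of 10 listed genes 8 were measured, and none passed in any comparison (limma). RFeSP, the Rieske iron-sulphur protein of complex III, had 1512.5 and 1472.4 in rescue heads, 1430.2 and 1444.7 in mutant heads, and 1271.7 and 1189.3 in control heads. Its rescue and mutant arrays were above the control arrays (0.28 for rescue against control, adjusted p = 0.0611). blw, the alpha subunit of ATP synthase, had a difference of 0.01 between rescue and control, and cype, a further oxidase subunit, 0.01. Among 4 probe sets that name a second gene beside a respiratory one, which were left out of the counts, none passed.

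In the TCA cycle, which feeds the chain with NADH and succinate, 12 of 20 listed genes were measured. Between mutant and control 2 rose and 1 fell, beside 6.88% and 3.88% of all probe sets. Between rescue and mutant none passed, beside 0.693% and 0.709%. Between rescue and control 3 rose and none fell, beside 6.83% and 5.25%. Idh, an NADP-dependent isocitrate dehydrogenase, rose in both against control (0.45 ± 0.080 in mutant, adjusted p = 0.0156, and 0.43 ± 0.080 in rescue, adjusted p = 0.0177). ScsbetaG, a succinyl-CoA synthetase subunit, read 287.2 and 292.8 in rescue heads, 271 and 310.6 in mutant heads, and 195.1 and 213.1 in control heads, and rose by 0.51 in both mutant and rescue against control (adjusted p = 0.0188 and 0.0186). ScsbetaA, the other beta subunit, rose by 0.48 between rescue and control (adjusted p = 0.0276). Idh3g, a subunit of the NAD-dependent isocitrate dehydrogenase, read 1960.5 and 1964.2 in rescue heads, 1599.4 and 1549.4 in mutant heads, and 2010.5 and 2022.9 in control heads. It fell by 0.36 between mutant and control (adjusted p = 0.0247), and the difference between rescue and mutant was 0.32 (adjusted p = 0.107). With 1 array left out, Idh passed in 4 of 6 fits in each comparison, Idh3g in 1 of 6, ScsbetaA in 3 of 6, and ScsbetaG in 2 of 6 for mutant and 4 of 6 for rescue against control, with adjusted p up to 0.177.

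Of 24 listed assembly factors 9 were measured beside Sdhaf3. Of these 1 rose between rescue and control, beside 6.83% of all probe sets: CIA30, which acts in the assembly of complex I (0.31 ± 0.076, adjusted p = 0.0423). It passed in 1 of 6 fits with 1 array left out. No other assembly factor passed in any comparison. Of 6 measured carriers of nucleotides, phosphate and small molecules none passed in any comparison. sesB, the main exchanger of ADP and ATP, had a difference of 0.03 between mutant and control and 0.10 between rescue and control. Of 7 measured regulators of mitochondrial genes, among them the transcription factor genes ewg, Ets97D and ERR and the mitochondrial TFAM and mtTFB2, none passed. Their median difference was 0.02 between mutant and control, -0.09 between rescue and mutant and -0.01 between rescue and control.

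Markers of the cell types in a head moved between the groups as well. Between mutant and control 6.88% of all probe sets rose and 3.88% fell. The shares were 0.693% and 0.709% between rescue and mutant, and 6.83% and 5.25% between rescue and control. Of 6 measured photoreceptor markers, trpl fell between mutant and control, 3 (chp, inaD and trpl) fell between rescue and mutant, and 4 (these and trp) fell between rescue and control. The sums of the 6 were 44137.7 and 44742 in rescue heads, 51609.7 and 51204.1 in mutant heads, and 55151.9 and 57048 in control heads. Most of each photoreceptor sum was Arr1 and Arr2, which did not pass in any comparison. The markers did not share 1 order. Between mutant and control trpl, trp and Arr1 had differences of -0.58, -0.21 and -0.11. In that comparison chp and Arr2 had -0.01 each. There inaD had 0.11 with both mutant arrays above both control arrays, beside 23.9% of all probe sets. Of 4 glia markers, moody and nrv2 rose in mutant and in rescue against control, with sums of 8760.6 and 9058.2 in rescue heads, 8540.5 and 8811.6 in mutant heads, and 7922.7 and 7347 in control heads. Most of each glia sum was Gs2, which did not pass, and repo, the marker of nearly all glia, had differences of -0.26 between mutant and control (adjusted p = 0.0958) and -0.21 between rescue and control (adjusted p = 0.147), with both control arrays above the others. Of 6 muscle markers none passed, and their sums overlapped, at 5807.8 and 5231.4 in rescue heads, 5419.8 and 5069.5 in mutant heads, and 5267.9 and 6647 in control heads. Lsp2, a storage protein gene among 5 fat body markers, fell by 0.76 between mutant and control and rose by 0.67 between rescue and mutant. Of the 5, 1 was above 0 between mutant and control, apolpp at 0.14, and 3 between rescue and mutant. NimC1, among 5 hemocyte markers, rose by 2.56 between rescue and control, where 4 of the 5 were above 0 and Pxn had -0.06. Between mutant and control NimC1 and PPO2 had 1.35 and 0.20, and Hml, PPO1 and Pxn had -0.67, -0.42 and -0.25. None of 4 neuron markers passed, with sums of 2052 and 2181.6 in rescue heads, 1973.9 and 2060.7 in mutant heads, and 2143.5 and 1714 in control heads. Between rescue and control brp, elav and para had differences of -0.43, -0.42 and -0.34 (adjusted p between 0.0679 and 0.188) and nSyb had 0.48 (adjusted p = 0.134), each with no overlap of the arrays. Of all probe sets 35.8% were lower and 23.8% higher without overlap of the arrays in that comparison. No marker of these lists was listed at 0. The part of cell makeup in the respiratory values was not tested.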

How the data were processed

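The authors deposited intensity values that RMA had summarised to 1 value for a probe set on each array, per the submitters' processing notes, which name no version. RMA normalizes between arrays, which removes changes shared by all transcripts. The values were linear, from 5.6 to 16778.3, with no detection call, and log2 was taken before testing. Gene names came from the platform annotation (13647 probe sets with 1 symbol, 402 with several and 4720 with none), and all 73 member genes matched the gene table of assembly Release 6 plus ISO1 MT under the same symbol. Control probe sets (183) were left out, which left 18769. The fit used limma 3.58.1 under R 4.3.3 (functions lmFit and eBayes, all 6 arrays in 3 groups, two-sided, Benjamini-Hochberg adjustment within a comparison, 3 residual and 4 prior degrees of freedom). It was tested on simulated data. With 2 arrays in a group the precision is low, and a permutation test of 2 against 2 arrays cannot pass 0.05. The titles call the replicates biological; nothing more is said of their source, so p-values measure the spread between these samples.

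The 5' to 3' index is the mean log2 ratio of the actin and GAPDH control probe sets. Genes named are those past the threshold, the 5 highest and 5 lowest members of each comparison, core subunits, genes whose probe sets disagree, and paralogues; further genes were named after their values were seen. The members and lists were chosen with earlier results of these data known. Same-numbered replicates deviated together with correlations of -0.255 (mutant and control), 0.00356 (rescue and mutant) and -0.188 (rescue and control) across probe sets, so the numbers do not pair the arrays. Gene order came from that gene table, and no sequence or coordinate is printed.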

Additional observations from a re-analysis of the deposited data

How the results depend on the processing

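The number of genes past the threshold depended on the settings, while no single call changed sign in any of them. Of 78 repeats of the 5 calls (COX7AL in both of its comparisons, ND-B14, ND-B14.7 and COX5A), 37 kept the call and 41 lost it. These repeats are not all distinct. Leaving out either array of the group not compared gave the same fit as only the 2 groups compared, so that fit enters the counts more than once. The same holds for the counts out of 6 fits given for the TCA cycle genes and CIA30. For mutant against control the 1 rise became 2 with log2(intensity + 16) or a mean intensity of at least 32 (ND-B14 and ND-B14.7 in both, without COX7AL), 3 with a trended and robust prior, and 0 with array weights, the index of 5' to 3' signal as a covariate, the replicate block or only the 2 groups compared. Leaving out 1 array gave 0 to 5 rises and 0 to 2 falls. For rescue against mutant the 1 fall became 0 with the added 16, the intensity minimum or the replicate block, and leaving out 1 array gave 0 to 1. For rescue against control the 3 rises became 13 with the added 16, 7 with the intensity minimum, 8 with the trended and robust prior, 1 with the replicate block, and 0 with the covariate or only the 2 groups compared. Leaving out 1 array gave 0 to 9 rises and 0 to 1 falls. The highest counts, 5 and 9, came without control replicate 1, where ATPsynbeta, ND-B14, ND-B14.7, COX7AL and SdhB rose between mutant and control, and ATPsynbeta, COX5A, COX7A, ND-20, ND-39, ND-B14, ND-B14.5A, ND-B14.7 and ND-B17.2 between rescue and control. In a fit without 1 array the lone array of its group is taken to vary like the other groups. The intensity minimum removes most paralogues from the count. It left 11943 of all probe sets, of which 1380 rose for mutant against control and 1410 for rescue against control. Counts over all 18769 probe sets moved with the settings too. For mutant against control there were 1291 rises in the main fit, 1464 with the added 16 and 1375 with the trended and robust prior. With the covariate 1156 rose, with array weights 1052, with the replicate block 859 and with only the 2 groups 715. For rescue against control there were 1281 rises in the main fit, 1395 with the added 16 and 1355 with the trended and robust prior. With the replicate block 846 rose, with the covariate 402 and with only the 2 groups 812. Between rescue and mutant 133 fell in the main fit, 156 with the added 16 and 54 with the replicate block. Without control replicate 1 more of all probe sets passed in both comparisons with control. Apart from the loss of paralogues, the cause of the shifts was not tested.

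The median over the 73 genes was 0.05 for mutant against control (0.044 to 0.09 with 1 array left out), 0.067 for rescue against mutant (0.036 to 0.097) and 0.088 for rescue against control (0.065 to 0.152), and for the last it was 0.132 with the intensity minimum and 0.154 with the covariate. A block with the control numbers crossed, added after the data were seen, gave 1 rise and 1 fall for mutant against control and 4 rises for rescue against control. Over all probe sets this block gave 1460 rises and 899 falls in the first and 1582 rises in the second. Background correction could not be varied from summarised values.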
